A study of Homo sapiens with 4 samples.

Results

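The genes of the DNA replication machinery were followed in MV4-11 cells upon CEBPG knockdown. They are 50 genes that encode the MCM helicase, the factors that load and activate it at origins, the replicative polymerases and primase, the sliding clamp and its loader, and the proteins that finish Okazaki fragments and protect the fork. They were picked by gene symbol among the 16490 genes with values, and the RefSeq rows of each gene were summed in each library. The list was drawn up with the difference between the groups already known, so the members' own differences are given as descriptions. The list as a whole was not tested, and no p-value is printed for a member. Members are also counted or named by whether they passed an adjusted p threshold in limma, set over all genes tested. These calls rest on the same difference and are descriptions too. MV4-11 is a human acute myeloid leukemia (AML) line that carries the KMT2A-AFF1 fusion and an internal tandem duplication in FLT3. The control group held 2 libraries of cells with the hairpin sh-NC, which the labels describe as having CEBPG present, and the knockdown group held 2 libraries of cells with sh-CEBPG#3. The hairpin against CEBPG was carried by the pLKO.1-puro lentivirus in cells selected with puromycin, and the paper does not describe the vector of sh-NC. The knockdown rests on 1 hairpin against CEBPG, a bZIP transcription factor. Whether a group's 2 libraries stem from separate infections is not given in the sources used here, so their spread may be technical.

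Values are FPKM, fragment counts scaled by transcript length and library size, which can be compared between genes because they are divided by length. FPKM totals ranged from 364353 to 389766 across the 4 libraries, and the read depth behind them is unknown because FPKM carry no counts. CEBPG, the target of the hairpin, had 30.4 and 33.6 FPKM in sh-NC cells and 19.2 and 17.1 FPKM in sh-CEBPG#3 cells. Its log2 fold change was -0.78 (SE 0.088, limma, Benjamini-Hochberg adjusted p = 8.88e-05), so 56.8% of the control level remained. Of 10 myeloid leukemia markers, 9 had a mean of at least 0.5 FPKM, with the lysozyme gene LYZ at 567 and 610 FPKM in sh-NC cells and 3130 and 2980 FPKM in sh-CEBPG#3 cells. Of these 9, CD33, SPI1, MPO, LYZ and CSF1R were higher at an adjusted p under 0.05 in limma, MEIS1 (-0.87) and HOXA9 (-0.36) were lower, and FLT3 and ITGAM were not called. Among markers of other cell types, the fibroblast gene COL1A1 lay between 0.0128 and 0.0781 FPKM. The epithelial keratin gene KRT8 rose from 2.29 and 2.35 FPKM to 6.26 and 6.19 FPKM (log2 fold change 1.12, adjusted p = 1.55e-05 in limma), and the part of these marker changes in the levels of the replication genes was not tested.

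Replication starts when the origin recognition complex (ORC), CDC6 and CDT1 load rings of MCM2 to MCM7 onto DNA in G1. At the entry to S phase the kinase CDC7 with DBF4, together with CDC45 and the GINS complex, turns the loaded ring into an active helicase, and the polymerases follow. Many of these genes are known targets of E2F factors, which RB family proteins hold in check until late G1, and their mRNAs are abundant in dividing cells.

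The windows around the transcription starts were searched for the E2F-type letters TTTCGCGC, TTTGGCGC, TTTCCCGC and TTTGCCGC on both strands, from 250 bases before to 50 bases after each start. The windows are those of RefSeq on GRCh38, the build the labels also name (hg38), and 44 of the 50 genes had one. A match was present for 22 of these 44 genes (50%), against 3.31% of all 35116 windows and 6.77% of the 9141 other genes tested that had a window. Matches on opposite strands can overlap, as the letters TTTCGCGCGAAA hold 1 match on each strand. All 4 helicase genes with a window, MCM2, MCM3, MCM6 and MCM7, held a match, whereas 1 of the 6 ORC genes, ORC3, did. ORC3 had a log2 fold change of -0.14, while ORC1 (-0.65) and ORC6 (-0.59) held no match. TIMELESS (-1.20) and PRIM1 (-0.94) held none either, and GMNN (-0.21) and GINS3 (-0.23) did hold one. The following stretches are shown because they carry the matches of these helicase genes and of 3 further members, with ORC5 as a gene without any. They run 5′ to 3′ on the strand of the gene, and capitals mark the matches, where GCGGGAAA is TTTCCCGC read from the other strand.

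MCM2 (chr3:127598398-127598430, plus strand): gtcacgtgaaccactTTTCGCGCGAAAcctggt
MCM3 (chr6:52284724-52284931, minus strand): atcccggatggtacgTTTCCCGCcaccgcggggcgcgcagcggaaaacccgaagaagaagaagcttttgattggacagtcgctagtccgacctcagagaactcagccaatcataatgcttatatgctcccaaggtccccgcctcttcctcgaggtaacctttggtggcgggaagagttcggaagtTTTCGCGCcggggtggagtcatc
MCM6 (chr2:135876507-135876610, minus strand): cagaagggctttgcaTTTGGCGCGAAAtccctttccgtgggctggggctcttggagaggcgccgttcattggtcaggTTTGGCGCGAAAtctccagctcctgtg
MCM7 (chr7:100101384-100101599, minus strand): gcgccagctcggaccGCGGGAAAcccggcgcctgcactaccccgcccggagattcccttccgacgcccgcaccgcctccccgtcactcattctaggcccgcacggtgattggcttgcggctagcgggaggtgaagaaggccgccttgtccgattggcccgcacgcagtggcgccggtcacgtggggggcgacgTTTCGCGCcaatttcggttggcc
CDC6 (chr17:40287871-40287898, plus strand): ctgtggccattcggaTTTGGCGCgagcg
GINS2 (chr16:85688963-85689000, minus strand): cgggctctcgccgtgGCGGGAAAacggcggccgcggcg
PCNA (chr20:5126659-5126696, minus strand): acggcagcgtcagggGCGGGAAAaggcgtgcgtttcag
ORC5 (chr7:104208014-104208093, minus strand): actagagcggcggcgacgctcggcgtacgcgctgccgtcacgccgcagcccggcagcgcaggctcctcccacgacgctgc

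In MCM6 the letters TTTGGCGCGAAA occur at 2 places upstream of the start, and in MCM2 the related TTTCGCGCGAAA lies just after it. Of the 30 matches in the members, 24 began within 100 bases of the start, and 6 members held 2 or more. The pentamer CCAAT was found for 59.1% of the 44 genes and 43.2% of the other genes tested, and the letters TTTGAA for 6.82% and 13.4%. The letters TTGCATCA, one form bound by CEBP and ATF proteins together, were found for 0 of the 44 genes and 0.722% of the other genes tested. With so low a share, 0 of 44 genes does not set the members apart. The matches are letters in a window and do not show that a factor binds there.

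The 50 genes were lower as a group in the sh-CEBPG#3 libraries. Of the 50, 48 had a negative log2 fold change, and in 46 both sh-CEBPG#3 libraries lay below both sh-NC libraries, an arrangement found for 40.2% of all 12142 genes tested. At an adjusted p under 0.05 in limma, 41 members were lower and 0 were higher, where 23.8% of all genes tested were lower and 18.5% were higher. The median log2 fold change of the members was -0.54, against -0.04 over all genes tested. At an unadjusted p under 0.05 and a log2 fold change under -1 in limma, 5 members were lower, where 1.05% of all genes were. That is the threshold in the study's methods, which applied it to DESeq2 results. The 5 members were TIMELESS, MCM8, MCM6, MCM4 and TIPIN. The number depends on the pseudocount of 1, as the means of MCM2, MCM3 and POLE2 were also under 50% of control (49.7%, 49.6% and 48.9%), and with a pseudocount of 0.01 their log2 fold changes were -1.01, -1.01 and -1.05. Since the list was drawn up knowing this difference, its counts describe the members and support nothing further. In bulk libraries a smaller share of cells in S phase and less of these mRNAs in each cell cannot be told apart.

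**Figure D1:**
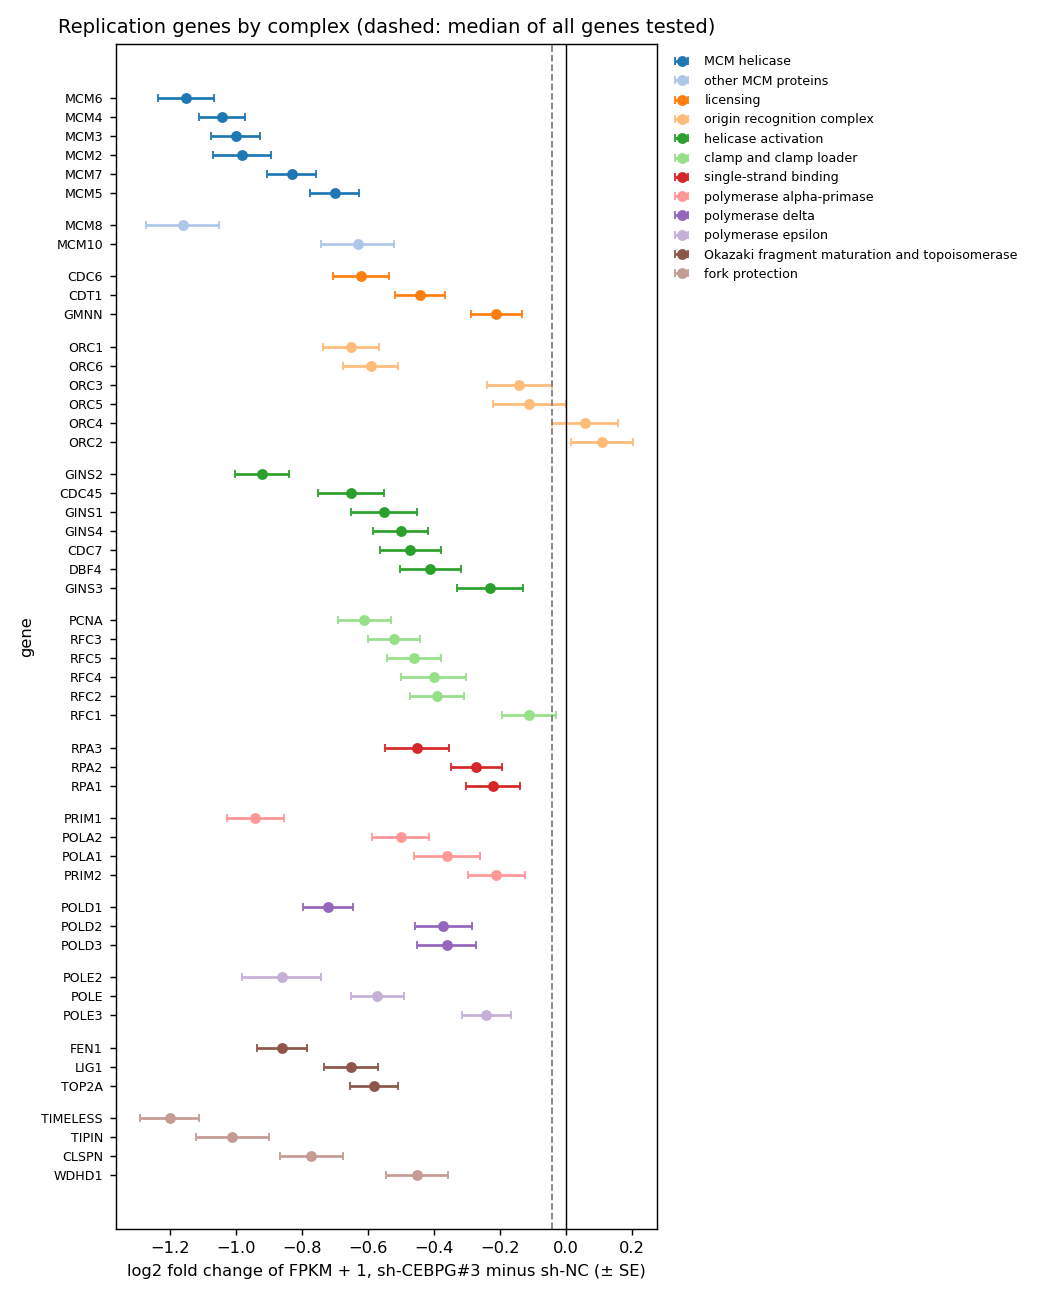
Log2 fold change on the log2(FPKM + 1) scale (x axis, sh-CEBPG#3 minus sh-NC, point and SE) of each of the 50 genes, grouped by complex, with the median of all genes tested dashed at -0.04. The MCM helicase genes lie between -1.15 and -0.70, while ORC2, ORC3, ORC4 and ORC5 lie between -0.14 and 0.11.

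The subunits of the MCM helicase, which unwinds the parental DNA, were each at 43.9% to 60.9% of the control level. MCM2 had 52.4 and 60.2 FPKM in sh-NC cells and 29.2 and 26.8 FPKM in sh-CEBPG#3 cells (log2 fold change -0.98, SE 0.088). MCM3 had 83.4 and 90.6 FPKM in sh-NC cells and 43.9 and 42.4 FPKM in sh-CEBPG#3 cells (-1.0, SE 0.074). MCM4 had 77.2 and 79.1 FPKM in sh-NC cells and 38.0 and 36.8 FPKM in sh-CEBPG#3 cells (-1.04, SE 0.070). The groups did not overlap for any of these genes, and the gap between the groups was larger than that between libraries of a group. MCM5 had 45.5 and 46.9 FPKM in sh-NC cells and 29.0 and 27.2 FPKM in sh-CEBPG#3 cells (-0.70, SE 0.075). MCM6 had 42.8 and 46.5 FPKM in sh-NC cells and 20.7 and 18.5 FPKM in sh-CEBPG#3 cells (-1.15, SE 0.085). MCM7 had 89.7 and 98.0 FPKM in sh-NC cells and 51.7 and 53.0 FPKM in sh-CEBPG#3 cells (-0.83, SE 0.074). MCM6 was thus the subunit with the lowest share of its control level and MCM5 that with the highest.

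Summed over the 6 subunits, the level was 391 and 421 FPKM in sh-NC cells and 213 and 205 FPKM in sh-CEBPG#3 cells, or 406 ± 21.4 and 209 ± 5.60 FPKM (SD, n = 2), so 51.4% remained. In sh-NC cells the order of the levels was MCM7, MCM3, MCM4, MCM2, MCM5 and MCM6. The ranges of MCM7 and MCM3 overlapped, as did those of MCM5 and MCM6, and the other neighbours within this order were apart. The proportions among the subunits also shifted. MCM5 made up 11.6% and 11.1% of the sum in sh-NC libraries and 13.7% and 13.3% in sh-CEBPG#3 libraries. MCM6 made up 11.0% of it in both sh-NC libraries, against 9.75% and 9.03% upon knockdown. With 2 libraries per group an exact permutation test of such a share cannot give a two-sided p below 0.333, so no test is given.

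**Figure D2:**
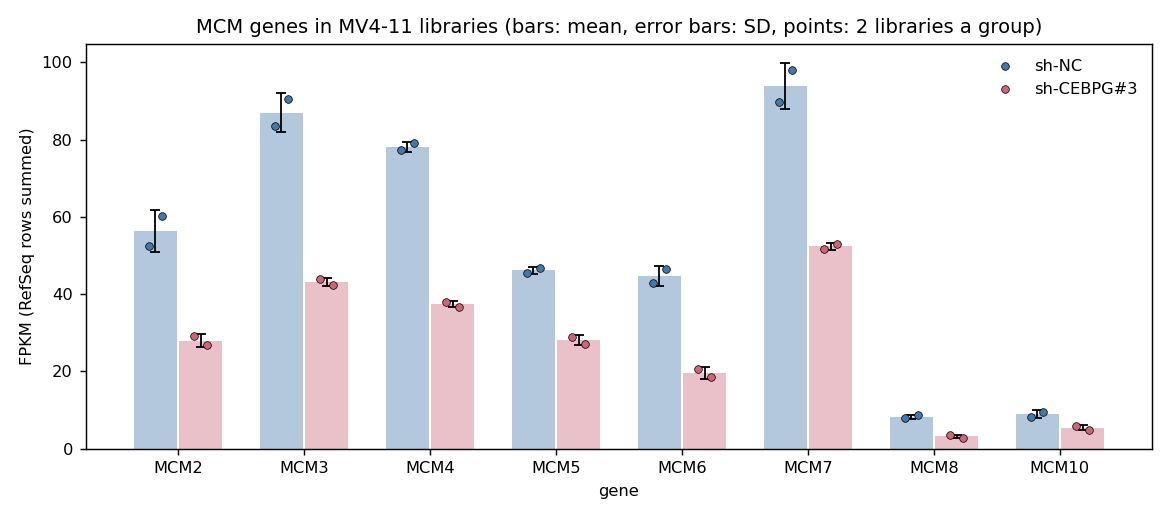
FPKM (y axis, RefSeq rows summed) of the 8 MCM genes among the members in sh-NC and sh-CEBPG#3 libraries, with bars for means, error bars for SD and points for the 2 libraries of each group. In each gene both sh-CEBPG#3 points lie below both sh-NC points, and MCM8 and MCM10 stay under 10 FPKM.

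MCM8, which pairs with MCM9 in recombination and is not part of the replicative ring, had 7.97 and 8.71 FPKM in sh-NC cells and 3.53 and 2.87 FPKM in sh-CEBPG#3 cells (-1.16, SE 0.11). The share of the control level, 38.4%, was the lowest of all 50 genes. In the GENCODE annotation 33.3% of its exonic bases are shared with an annotated gene on the same strand. MCM10, which helps to activate the loaded helicase, had 8.29 and 9.63 FPKM in sh-NC cells and 5.90 and 4.93 FPKM in sh-CEBPG#3 cells, or 60.5% of control.

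Among the loading factors, CDC6 was at 63.0% and CDT1 at 73.1% of the control level. Geminin (GMNN), the inhibitor of CDT1, had 32.3 and 34.8 FPKM in sh-NC cells and 29.7 and 28.1 FPKM in sh-CEBPG#3 cells, a log2 fold change of -0.21 (SE 0.078). The groups did not overlap for GMNN, but it did not pass an adjusted p of 0.05 in limma, and it did pass with equal FPKM totals, with quantile normalization and without sh-NC replicate 1 (-0.26).

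The ORC genes did not move alike. ORC1, whose product is degraded and made anew through the cell cycle, had 13.3 and 14.0 FPKM in sh-NC cells and 8.43 and 8.23 FPKM in sh-CEBPG#3 cells (-0.65, SE 0.084). ORC6 had 16.6 and 16.9 FPKM in sh-NC cells and 10.3 and 11.2 FPKM in sh-CEBPG#3 cells (-0.59, SE 0.083). These were the ORC genes with separate groups. For ORC2, ORC3, ORC4 and ORC5, the subunits of the more stable ORC core, the groups overlapped. ORC2 had 8.05 and 9.13 FPKM in sh-NC cells and 9.66 and 9.0 FPKM in sh-CEBPG#3 cells (0.11, SE 0.094). ORC3 had 7.91 and 7.30 FPKM against 6.32 and 7.32 FPKM (-0.14, SE 0.099). ORC4, the lowest of the members, had 2.76 and 2.94 FPKM against 3.11 and 2.90 FPKM (0.06, SE 0.10). These are the 4 members of the 50 whose groups overlapped, with ORC5 at 6.83 and 8.81 FPKM against 7.04 and 7.18 FPKM (-0.11, SE 0.11). The direction of ORC5 turned to 0.05 without sh-NC replicate 2. The summed MCM2 to MCM7 level was 7.06 and 7.12 times that of ORC1 to ORC6 in sh-NC libraries and 4.74 and 4.46 times in sh-CEBPG#3 libraries.

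Of the helicase activators, GINS2 showed the largest difference, with 17.0 and 17.7 FPKM in sh-NC cells and 8.67 and 8.77 FPKM in sh-CEBPG#3 cells (-0.92, SE 0.081). GINS1 was at 65.4%, GINS4 at 68.3% and GINS3 at 82.8% of control. GINS3 had 5.52 and 6.56 FPKM in sh-NC cells and 5.10 and 4.90 FPKM in sh-CEBPG#3 cells (-0.23, SE 0.10) and did not pass an adjusted p of 0.05 in limma. GINS3 passed without sh-NC replicate 1 (-0.33) or at equal totals, and its value was -0.12 without sh-NC replicate 2. The 4 GINS subunits, which form a complex with 1 copy of each, thus ranged from 50.3% to 82.8%. CDC45, the partner of GINS at the helicase, was at 62.1%, the kinase CDC7 at 68.8% and its activator DBF4 at 71.5% of control.

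PCNA, the sliding clamp that holds polymerases on DNA, was the most abundant member. It had 146 and 164 FPKM in sh-NC cells and 105 and 97.4 FPKM in sh-CEBPG#3 cells, a log2 fold change of -0.61 (SE 0.080). The clamp loader subunits RFC2, RFC3, RFC4 and RFC5 were at 68.4% to 75.4% of control. The large subunit RFC1 had 13.4 and 14.0 FPKM in sh-NC cells and 12.9 and 12.3 FPKM in sh-CEBPG#3 cells (-0.11, SE 0.082), did not pass an adjusted p of 0.05 in limma and was at 92.0%. The subunits of RPA, which coats single-stranded DNA, were at 70.4% for RPA3, 82.6% for RPA2 and 85.4% for RPA1. RPA1 had 27.2 and 28.0 FPKM in sh-NC cells and 24.9 and 22.2 FPKM in sh-CEBPG#3 cells (-0.22, SE 0.083) and did not pass in limma, but did with quantile normalization, with equal totals, with a floor of 1 FPKM and without sh-NC replicate 1 (-0.24).

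The subunits of the polymerases also differed within each complex. In the polymerase alpha-primase complex, which lays the primers, the catalytic primase PRIM1 had 26.5 and 27.8 FPKM in sh-NC cells and 14.5 and 12.9 FPKM in sh-CEBPG#3 cells (-0.94, SE 0.086). Its partner PRIM2 had 11.6 and 12.8 FPKM against 10.7 and 10.2 FPKM (-0.21, SE 0.087). PRIM2 did not pass an adjusted p of 0.05 in limma, but did without sh-NC replicate 1 (-0.27), at equal totals or after quantile normalization. The value was -0.14 without sh-NC replicate 2. The genome holds near-identical copies of part of it, so its reads are uncertain. The polymerase subunits POLA1 and POLA2 were at 74.6% and 67.2% of control. For polymerase delta, which copies the lagging strand, the catalytic POLD1 was at 59.7%, POLD2 at 76.7% and POLD3 at 76.1%. For polymerase epsilon, which copies the leading strand, POLE2 had 6.52 and 6.76 FPKM in sh-NC cells and 2.75 and 3.75 FPKM in sh-CEBPG#3 cells (-0.86, SE 0.12). The catalytic POLE was at 65.5%. POLE3, a histone-fold subunit that also works in chromatin remodelling, had 48.7 and 49.4 FPKM against 42.9 and 39.9 FPKM (-0.24, SE 0.074), and it no longer passed without sh-CEBPG#3 replicate 1 (-0.29), without sh-CEBPG#3 replicate 2 (-0.19), with the replicate block or with the most abundant row.

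FEN1, the nuclease that trims Okazaki fragments, had 33.4 and 35.2 FPKM in sh-NC cells and 18.7 and 18 FPKM in sh-CEBPG#3 cells (-0.86, SE 0.076). LIG1, the ligase that joins them, was at 62.1%, and TOP2A, the topoisomerase that separates the daughter strands, at 66.0% of control. Of the fork protection genes, TIMELESS had the largest decrease of the 50 members on the log2(FPKM + 1) scale and TIPIN the fifth largest. As a share of the control level, MCM8 (38.4%) was lower than TIMELESS (41.1%). TIMELESS had 22.5 and 25.9 FPKM in sh-NC cells and 10 and 9.84 FPKM in sh-CEBPG#3 cells (-1.20, SE 0.089). By this log2 fold change it ranked 57 of 12142 genes from the largest decrease. Its partner TIPIN had 8.24 and 9.83 FPKM in sh-NC cells and 4.16 and 3.78 FPKM in sh-CEBPG#3 cells (-1.01, SE 0.11), and 21.1% of its exonic bases are shared with a pseudogene on the same strand. CLSPN, which passes the signal from ATR to the checkpoint kinase CHEK1, was at 52.2%, and WDHD1, which ties polymerase alpha to the helicase, at 68.2% of control.

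In the control cells the levels of the 50 genes spread from 2.85 FPKM for ORC4 to 155 FPKM for PCNA. Per length, PCNA lay at the 98th percentile of the genes tested, MCM7 at the 96th, and ORC4 at the 25th. Below the helicase subunits the ranges of neighbours in the order mostly overlapped, for example from RPA1 through PRIM1, RFC3, TIMELESS and RFC2 to RFC4, all between 22.5 and 28.0 FPKM.

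The RefSeq rows that were summed were less steady than their sums. The 50 genes were listed with 101 rows, 18 genes with 1 row and the others with up to 5. The largest gap between libraries of a group had a median of 0.34 over the rows and 0.12 over the gene sums, on the log2(FPKM + 1) scale. It was over 1 for 15 rows and for 0 gene sums. The POLE3 row NM_017443 had 0 FPKM in sh-CEBPG#3 replicate 1 and 19.6 FPKM in replicate 2, while the row NR_027261 had 42.9 and 20.3 FPKM there. The MCM7 row NM_001278595 had 11.9 and 6.25 FPKM in sh-NC cells and 15.1 and 2.94 FPKM in sh-CEBPG#3 cells, while the sum moved by a gap of 0.13 at most. The main LIG1 row NM_000234 and the non-coding row NR_110296 exchanged level between replicates in the same manner. With the most abundant row in place of the sum, 29 members in place of 41 were lower at an adjusted p under 0.05 in limma, and the median log2 fold change was -0.52.

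**Figure D3:**
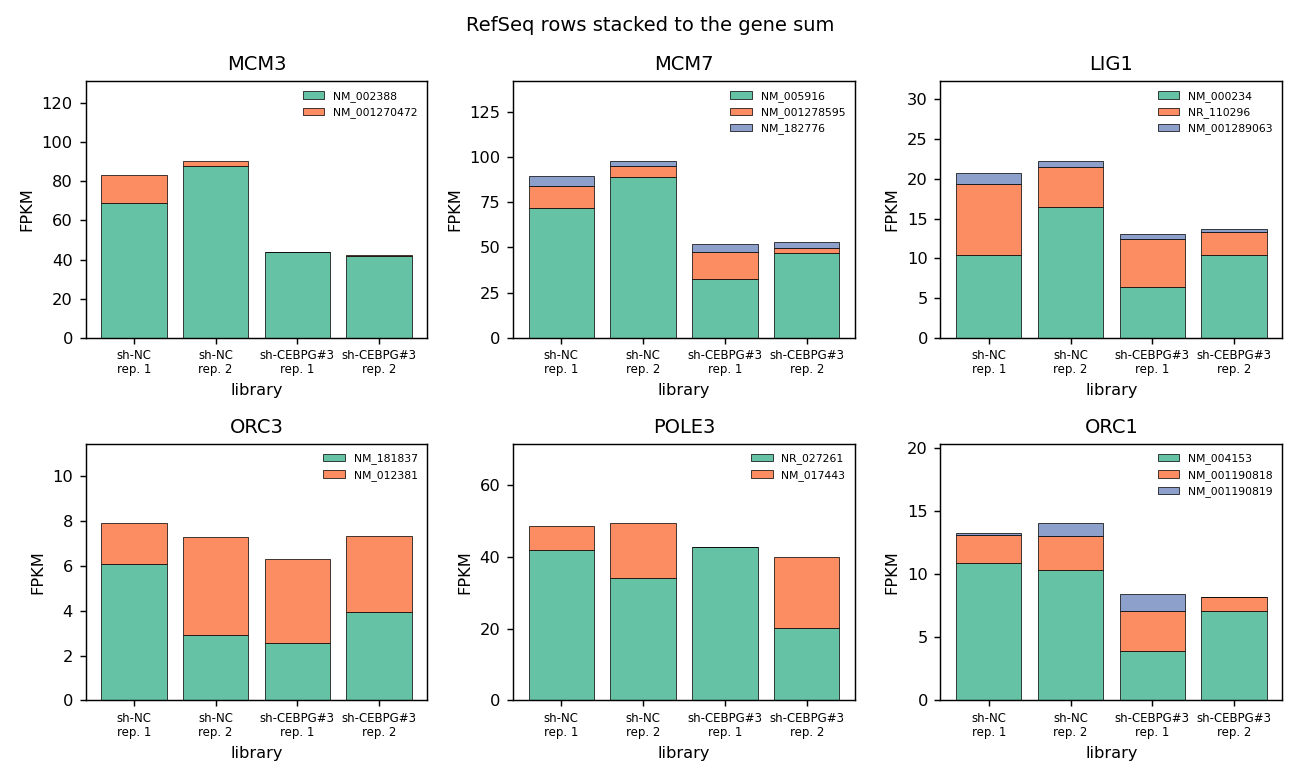
FPKM (y axis) of the RefSeq rows stacked to the gene sum in each of the 4 libraries for 6 replication genes. Rows trade level between replicates, as for POLE3 in sh-CEBPG#3 cells, while the height of the stack differs little within a group.

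Other genes of the replication process and of its control, which are no members, were listed by their role in 7 lists with 76 genes in all. These lists were chosen with earlier results of these data known, so their counts are descriptions and no separate support. All 76 were tested, and 49 were lower and 3 were higher at an adjusted p under 0.05 in limma (64.5% lower, against 23.8% of all genes tested), with a median log2 fold change of -0.41. Of 10 further origin firing factors, 7 fell, led by TOPBP1 (-0.71), which brings firing factors together, RECQL4 (-0.65), TICRR (-0.62) and DONSON (-0.37), with adjusted p up to 0.00851 (limma, Benjamini-Hochberg). The call of DONSON was lost with the most abundant row and without sh-CEBPG#3 replicate 2 (-0.31). KAT7, the histone acetyltransferase HBO1, was the 1 gene of this list that rose (0.35), and it is named after its value was seen.

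Of 17 further fork enzymes, 11 fell and 0 rose. The largest changes were those of DSCC1 (-0.92) and CHTF18 (-0.90), subunits of the alternative clamp loader, and of RNASEH2B (-0.74) and TOP1 (-0.74), with adjusted p up to 0.000153 in limma. Of the 6 genes that supply histones to new DNA, 5 fell. CHAF1A, the large subunit of chromatin assembly factor 1, fell from 30.7 and 33.1 FPKM to 16.7 and 16.0 FPKM (-0.92), NASP by 0.76, ASF1B by 0.51 and CHAF1B by 0.49 on the log2 scale, with adjusted p up to 0.00278 in limma.

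The genes of deoxynucleotide supply moved in both directions, with 6 of 10 lower and 2 higher. RRM1, the large subunit of ribonucleotide reductase, fell from 27.6 and 31.4 FPKM to 14.7 and 15.1 FPKM (-0.93, adjusted p = 2.29e-05 in limma), and thymidine kinase TK1 fell by 0.90. RRM2, the small subunit, which was named after its value was seen, had 24.1 and 25.3 FPKM in sh-NC cells and 28.8 and 27.2 FPKM in sh-CEBPG#3 cells (0.18, adjusted p = 0.0914 in limma). SAMHD1, which breaks deoxynucleotides down, rose from 40.7 and 44.2 FPKM to 88.5 and 83.3 FPKM (1.00, adjusted p = 7.02e-06 in limma), and CTPS1, named after its value was seen, rose by 0.24.

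Of 10 replication checkpoint genes, 6 fell and 0 rose, led by CHEK1 (-0.76), WEE1 (-0.72), RAD1 (-0.47) and CDC25A (-0.41), with adjusted p up to 0.00673 in limma. With the most abundant row CHEK1 (-0.58), RAD1 (-0.18) and CDC25A (-0.55) lost the call. Of the 16 genes of the E2F and RB family list, 11 fell and 0 rose. E2F8 fell from 6.81 and 6.87 FPKM to 2.70 and 2.47 FPKM (-1.13, adjusted p = 1.52e-05 in limma), and MYBL2, a factor that drives late cell cycle genes, from 54.0 and 58.0 FPKM to 25.6 and 25.2 FPKM (-1.11, adjusted p = 3.27e-06 in limma). RBL1, the RB family member p107, fell by 0.91 and TFDP2 by 0.56 on the log2 scale (adjusted p = 0.000203 and 0.00781 in limma). TFDP2 was low, at 1.22 and 1.18 FPKM in sh-NC cells and 0.433 and 0.562 FPKM in sh-CEBPG#3 cells, and its log2 fold change was -1.13 with a pseudocount of 0.1. Of 7 genes tied to protein degradation in licensing control, 3 fell, FBXO5 (-0.59), DTL (-0.55) and CUL4A (-0.23), and 0 rose in limma. CUL4A lost the call with the replicate block, with the most abundant row, without sh-NC replicate 2 (-0.20) and without either sh-CEBPG#3 replicate.

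Genes of mitosis were lower beside the replication genes. Of 20, 19 fell and 0 rose in limma, where 23.8% of all genes tested were lower and 18.5% were higher. The median log2 fold change of the 20 was -0.68, against -0.04 over all genes tested. Like the other lists, this list was chosen with earlier results of these data known. MKI67, the proliferation marker, fell from 18.7 and 19.7 FPKM to 9.69 and 9.0 FPKM (-0.96, adjusted p = 1.61e-05 in limma), CENPF fell by 0.88 and TPX2 by 0.84 on the log2 scale. CDK1, the kinase of mitotic entry, fell by 0.88 as a sum of its rows, but its most abundant row gave 0.05. The share of cells in each phase of the cycle was not measured in these libraries, and its part in the levels of the replication genes was not tested.

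**Figure D4:**
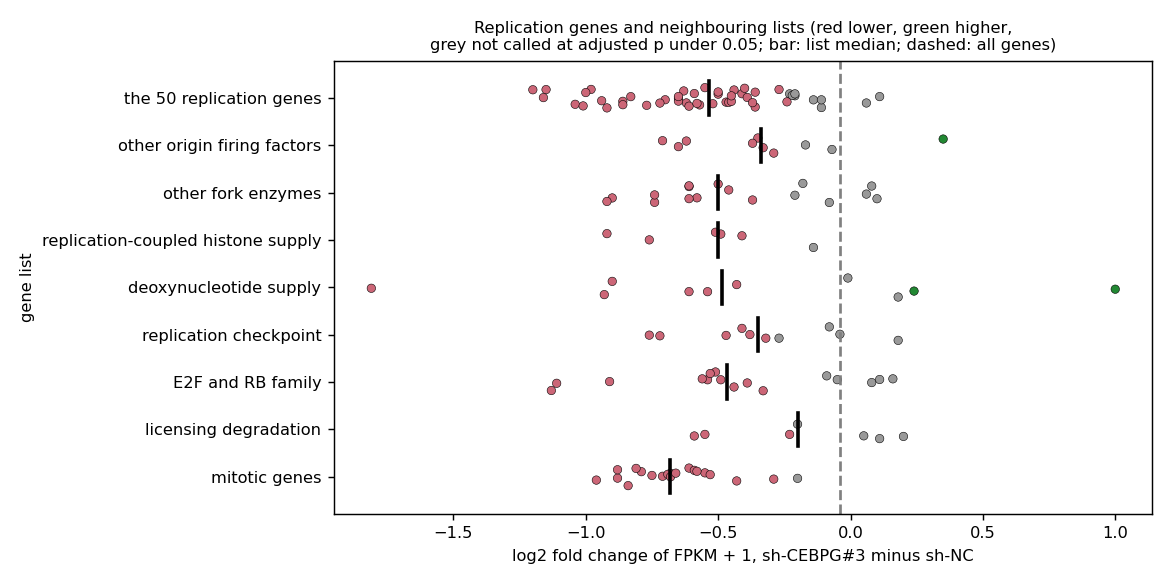
Log2 fold change (x axis, sh-CEBPG#3 minus sh-NC, log2(FPKM + 1) scale) of the 50 replication genes and of 8 further lists, with 1 point per gene, red for lower, green for higher and grey for genes that were not called at an adjusted p under 0.05 in limma, black bars for list medians and a dashed line for the median of all genes tested. The medians run from -0.68 for mitotic genes to -0.20 for licensing degradation, with SAMHD1 at 1.00 farthest to the right.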

How the data were processed

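RNA-seq libraries of MV4-11 cells, 2 with sh-NC and 2 with sh-CEBPG#3, were compared, and groups were taken from the sample titles. Reads were cleaned and aligned by the authors (HISAT2 2.0.5 and hg38 per the submitters' processing notes), who deposited FPKM values per RefSeq transcript. The program behind the FPKM is not given in the sources used here. Of 28780 rows, 28581 had values, and they were summed by symbol to 16490 genes. Genes averaging 0.5 FPKM or more, 12142 in all, were compared on the log2(FPKM + 1) scale, which understates changes of low genes, with limma 3.58.1 in R 4.3.3 (lmFit, eBayes with trend, no block) and Benjamini-Hochberg adjustment over all of them. DESeq2, which the authors used, takes counts and was not run. The code of the fit was checked on simulated data with independent noise, which does not show that its p-values hold for these libraries. Exon overlaps came from GENCODE and start windows from RefSeq, read with Python 3.11.15.

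The members and lists were chosen with earlier results of these data known. Named were MCM2 to MCM7, the 10 lowest and the 10 highest log2 fold changes among the members (2 of the latter above 0), up to 4 called genes with the largest change per other list, and CEBPG. Withheld items are not reported here. Other members are given to cover each role, after their values were seen. The fit was repeated with the most abundant row per gene, with each library left out, with the replicate block, with equal totals or quantile normalization, without a filter or with a floor of 1 FPKM, with pseudocounts of 0.1 and 0.01, and under the study's threshold.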

Additional observations from a re-analysis of the deposited data

How the results depend on the processing

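With 2 libraries per group every p-value rests on limma's variance model over all genes, and low genes could not be weighted by depth. The counts of members lower stayed between 29 and 45 of 50 under all alternatives to the fit, with 0 higher, and their median log2 fold change between -0.59 and -0.51. The study applied its threshold to DESeq2 results and it was applied here to limma, so the counts under it are not those of the study. Under the study's threshold 5 members were lower, and of all genes 128 were lower and 286 higher, against 2884 and 2244. With the most abundant row these were 1535 and 1329, and in the other replication lists 31 were lower and 1 higher, against 49 and 3. In those lists 7 were higher with quantile normalization and 5 with equal totals, and 1 to 4 with a library left out, the 1 being without sh-CEBPG#3 replicate 1. Their median of -0.41 moved to -0.46 with either smaller pseudocount and lay between -0.47 and -0.39 when 1 library was dropped, where -0.47 was without sh-NC replicate 1. A fit that leaves out a library assumes that the lone library of its group varies like the others. ORC5 (-0.11) lay between -0.28 (without sh-NC replicate 1) and 0.05 (without sh-NC replicate 2), and CDK1 (-0.88) was 0.05 with the most abundant row. Of the other values of single named genes, 602 kept their direction and side of the threshold, 18 lost the call and 12 gained it. The causes were not tested. Across genes, the deviations of libraries sharing a replicate number correlated at 0.061. That value alone cannot show whether the numbers mark a pairing, and the main fit does not assume one. With the replicate block 39 members were lower, 2673 genes were lower and 2088 higher, and 47 and 2 of the other replication lists were lower and higher.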

Other observations

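Among the genes tested that are no members, 619 held an E2F-type match in a start window, and 30.9% of them were lower at an adjusted p under 0.05 in limma, with a median log2 fold change of -0.10. Of the 8522 without a match, 23.2% were lower, with a median of -0.03. Among the members with a window, the median log2 fold change was -0.61 for the 22 with a match and -0.43 for the 22 without, values that belong to the difference the list was drawn up with. The split by CCAAT was similar among members, at -0.61 for the 26 with it and -0.45 for the 18 without. Of the other genes tested, 24.4% with CCAAT and 23.2% without were lower. For TTTGAA these shares were 27.6% and 23.1%, while the members' medians were -0.41 for the 3 with it and -0.57 for the 41 without. The part of any of these letters in the levels was not tested. The 66 other genes tested with the letters TTGCATCA had 22.7% lower.

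In GENCODE, 26 of the 50 members share no exonic base with another annotated gene, and 5 share more than 20% of them, namely MCM8, MCM2, GINS4, TIPIN and POLA2. For MCM2 these are 23.6% and for GINS4 23.4%, on the opposite strand, and for POLA2 16.8% on the same strand and 4.5% on the opposite strand. Whether the FPKM were computed by strand is not given in the sources used here, so reads of such neighbours cannot be told apart from those of the members.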
